A study of Mus musculus with 115 samples.

Results

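Ribosomal proteins are the protein building blocks of the cytosolic ribosome. Proteins named Rpl sit in the large subunit, which forms peptide bonds, and proteins named Rps sit in the small subunit, which reads the messenger RNA. Each is usually made from a single active gene, and their messenger RNAs are abundant, short and controlled together at translation through a pyrimidine tract at the 5′ end. Mammalian genomes also carry many processed pseudogenes of these genes, intronless copies made from messenger RNA.

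The autosomal ribosomal protein genes described here are the protein-coding genes on chromosomes 1 to 19 whose GENCODE M21 name is Rpl or Rps, a number and at most a letter a or x. Of 45699 genes in the table, 68 met this rule, 40 of the large and 28 of the small subunit. All 68 had a mean of at least 1 TPM (transcripts per 1000000, a level per transcript length), and no member was listed at 0 in any library.

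The levels come from total RNA of bulk prostate tissue of (TRAMP x WSB/EiJ) F2 males, all labelled Transgene positive and placed by the labels in 1 group, with 1 library per mouse. The table holds more libraries than the prostates that the study's methods describe, the labels do not tell which were meant, and all were kept. TRAMP mice carry SV40 T antigen on a C57BL/6 background under a minimal probasin promoter, which is active in androgen-dependent prostate epithelium. WSB/EiJ is an inbred strain of wild origin, and each F2 mouse holds its own mixture of both parental genomes. There is no transgene-negative or parental group, and prostates of low weight gave RNA from the ventral lobe only, as the study's methods state. In bulk tissue, fewer cells of a type and less RNA per cell cannot be told apart.

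Expression separated the libraries into 79 and 36 by the first principal component over 14553 genes, from which the members, Mki67 and Tgm4 were left out. It held 48.7% of the variance. No library changed sides when the members, Mki67 and Tgm4 were put in, but they are few among the genes used, so little change could arise. Mki67, a gene of dividing cells, was 0.39 to 25.7 TPM (median 4.23) in the 79 and 20 to 144 TPM (median 83.5) in the 36. Tgm4, a secreted transglutaminase of the prostate, was 0.64 to 16895 TPM (median 7050) in the 79 and 0.77 to 2469 TPM (median 1.83) in the 36. These sets were made from expression and are not groups of the study, so relations were examined within each. Summed prostate luminal markers ranged from 132 to 60914 TPM over all libraries, and summed seminal vesicle genes from 1.49 to 172504 TPM, so some libraries hold a large seminal vesicle signal.

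Libraries W5000 to W5005, all of them among the 79, stood apart. For 85 of 14623 genes, 71 lower and 14 higher, their 6 values lay wholly outside those of all other libraries. Rpl34 and Rps15a were among the 71. Mki67 was 0.39 to 0.93 TPM in these 6 libraries and 0.40 to 144 TPM in the others. The labels give these 6 mice the same cross as all others. Of the 79, only these 6 libraries are listed in the deposit from W4356 on. Within the 79 they therefore cannot be told apart from that position. What sets them apart was not tested. The counts of genes that moved with Mki67 or Tgm4 in the 79 libraries are given with and without them.

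The members held 15.2% (median) of the TPM of all protein-coding genes, from 4.74% to 23.4% (SD 4.02 over all libraries), and 15.6% without W5000 to W5005. Of the TPM of all genes they held 5.04%, and all protein-coding genes together held 31.2% (medians). The 20 genes with the largest share took 48.9% to 81.8% of a library. The summed TPM of small subunit members was 1.11 times that of large subunit members (median), from 0.933 to 1.25. The ratio was 1.14 (median, 1.03 to 1.25) in the 79 libraries and 1.02 (0.933 to 1.11) in the 36, so it was not the same in both sets. The member share of protein-coding TPM was 16.9% in the 79 and 11.3% in the 36 (medians).

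Median levels of single members spanned 2 orders of magnitude. Rps27, a zinc finger protein of the small subunit, was highest at 2845 TPM (932 to 4704). Rps21 followed at 2214 TPM (597 to 3548), Rps29 at 2081 TPM (753 to 3054), Rps28 at 1956 TPM (324 to 3457) and Rps14 at 1746 TPM (467 to 2987). The 5 highest medians were thus all of the small subunit, and their ranges over libraries overlapped. The middle of the distribution was narrow, with 604 TPM as the median of the member medians and 385 and 866 TPM as the quartiles.

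Rpl12, Rpl27 and Rpl5 lay below the rest. A member was called outside when its median log2(TPM + 1) lay over 1.5 times the interquartile range beyond the quartiles, which here meant under 113.9 or over 2913 TPM. Rpl12, a protein at the base of the ribosomal stalk, had a median of 17.7 TPM (6.39 to 48.02). Rpl27 had 22.5 TPM (8.49 to 68.6), and Rpl5, which carries 5S ribosomal RNA into the large subunit, 28.1 TPM (12.2 to 67.8). The next members inside were Rpl27a at 131 TPM and Rpl35 at 148 TPM, and Rps27 was the nearest to the upper bound. The highest value of Rpl12 in any library was below the median of every member except Rpl5 and Rpl27.

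**Figure D1:**
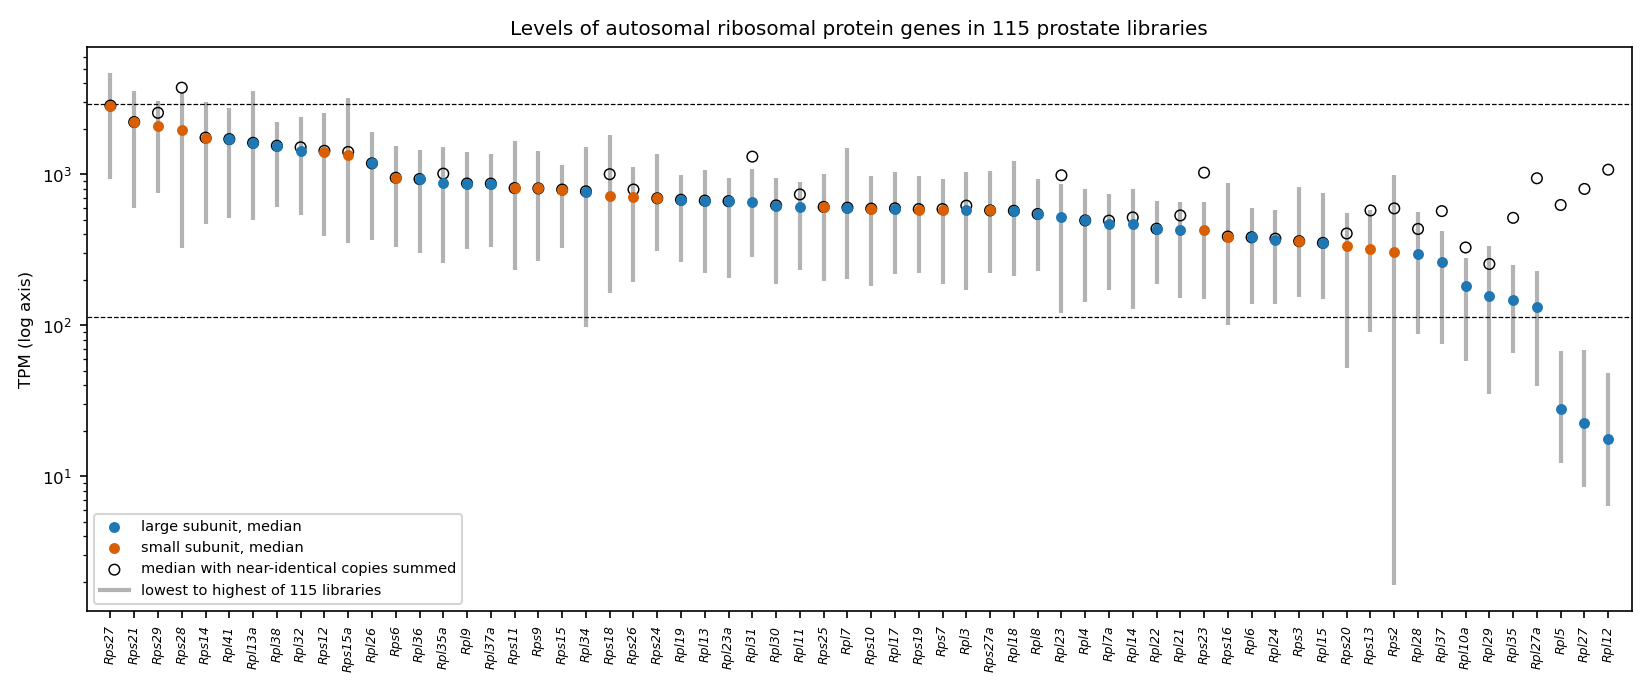
TPM of the members shown on a log axis, ordered by median over all libraries; filled points are medians (blue large subunit, orange small subunit), grey bars run from the lowest to the highest library, open circles are medians with near-identical copies summed, and dashed lines mark 113.9 and 2913 TPM. Rpl5, Rpl27 and Rpl12 sit under the lower line, and their open circles lie among the other members.

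Each of the 3 low members has copies elsewhere in the genome that were listed at high levels. A copy was counted when its GENCODE transcript matched that of the member at 95% identity or more over at least 80% of the shorter of the pair. By this measure 65 of the 68 members had copies, 465 in all, of which 438 are annotated as processed pseudogenes and 34 are identical to the member over the match. Copies are mostly shorter than the member's messenger RNA, so sums of TPM are not sums of reads. The copies of Rpl12 summed to a median of 1053 TPM, with Gm10275 on chromosome 10 (421 TPM), Gm9396 on chromosome 3 (241 TPM) and Gm11425 on chromosome 11 (91.9 TPM) as the highest. Those of Rpl27 summed to 764 TPM, of which Gm11518 on chromosome 11 had 166 TPM and Rpl27-ps3 had 594 TPM. Those of Rpl5 summed to 594 TPM, nearly all in Gm15500. In 7 members the copies had a higher median than the member itself, and in 25 they reached at least 50 TPM.

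Rpl5 and Gm15500 are shown because the reference coding sequence gives nothing to tell them apart. All 894 coding bases of Rpl5 are found in Gm15500. All sequences compared or shown are of the reference, and those of WSB/EiJ were not examined. The stretch below, coding bases 4 to 63 in GENCODE M21, lies in exon 2 of Rpl5 at chr5:107901870-107901929 on the plus strand and in Gm15500 at chr7:114706101-114706160 on the minus strand of GRCm38. Rps28 and Gm10443, the pair with the highest copy (1771 TPM), are likewise identical over all 210 coding bases, and bases 88 to 147 lie in exon 3 at chr17:33823271-33823330 and at chr6:86334118-86334177.
Rpl5 and Gm15500: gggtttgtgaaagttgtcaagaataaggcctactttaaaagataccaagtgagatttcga
Rps28 and Gm10443: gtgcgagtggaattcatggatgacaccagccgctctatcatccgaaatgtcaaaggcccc

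With copies summed, Rpl12 (1071 TPM), Rpl27 (799 TPM) and Rpl5 (625 TPM) lay inside the bounds recomputed on the summed levels, while Rps27 (2848 TPM), Rps28 (3742 TPM) and Rps29 (2549 TPM) lay above the upper of these. The interquartile range of the member medians went from 1.17 to 0.83 on the log2 scale. Which of the levels reflects the transcripts of these loci was not tested, since reads of identical sequence cannot be told apart.

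Members rose and fell together from library to library. Over the 79 libraries the median Pearson r over 2278 pairs of members was 0.90, and over the 36 it was 0.87. These are given as descriptions, since all pairs share the libraries and the TPM scale. Pairs of other genes were not measured, so a high r is not shown to be particular to the members. On TPM rescaled to the autosomal protein-coding total, the medians were 0.89 and 0.61. Rps2 followed the mean of the other members least in the 79 (r = 0.48) and Rpl26 most (r = 0.98). In the 36 libraries the lowest was Rpl5 (r = -0.04) and the highest Rps9 (r = 0.98).

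The scatter of a member around the others was measured as the SD over libraries of its log2(TPM + 1) minus the median over members of the same library. Its median over members was 0.20. Rpl30 (0.12), Rpl9 (0.12), Rpl11 (0.12) and Rps23 (0.13) varied least. Rps2 (2.36), Rpl5 (0.78), Rpl27 (0.68), Rpl29 (0.63) and Rpl12 (0.50) varied most. With copies summed these 5 fell to 0.24, 0.20, 0.22, 0.26 and 0.26, and the highest of any member was 0.40, in Rps29. All 5 have near-identical copies listed above 0 TPM, but 65 of the 68 members have copies. Of those that varied least, Rps23 has Rps23-ps1 at 608 TPM and Rpl11 has Gm10288 at 89.2 TPM (medians).

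Rps2, a small subunit protein near the entry of the messenger RNA channel, showed 3 levels. Its TPM ran from 1.90 to 990 (median 305), with 31 libraries at 1.90 to 15.3 TPM and the other 84 at 90.3 TPM or more. Its copies, chiefly Rps2-ps10, moved the other way. In 31 libraries Rps2 held 0.80% to 4.35% of the sum of Rps2 and its copies, in 55 libraries 48.9% to 57.1%, and in 29 libraries 95.5% to 99.7%. In the 31 libraries the copies were at 142 to 1071 TPM, in the 55 at 82.8 to 542 TPM and in the 29 at 2.56 to 10.8 TPM. The shares fell into sets with wide gaps and no library between them.

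**Figure D2:**
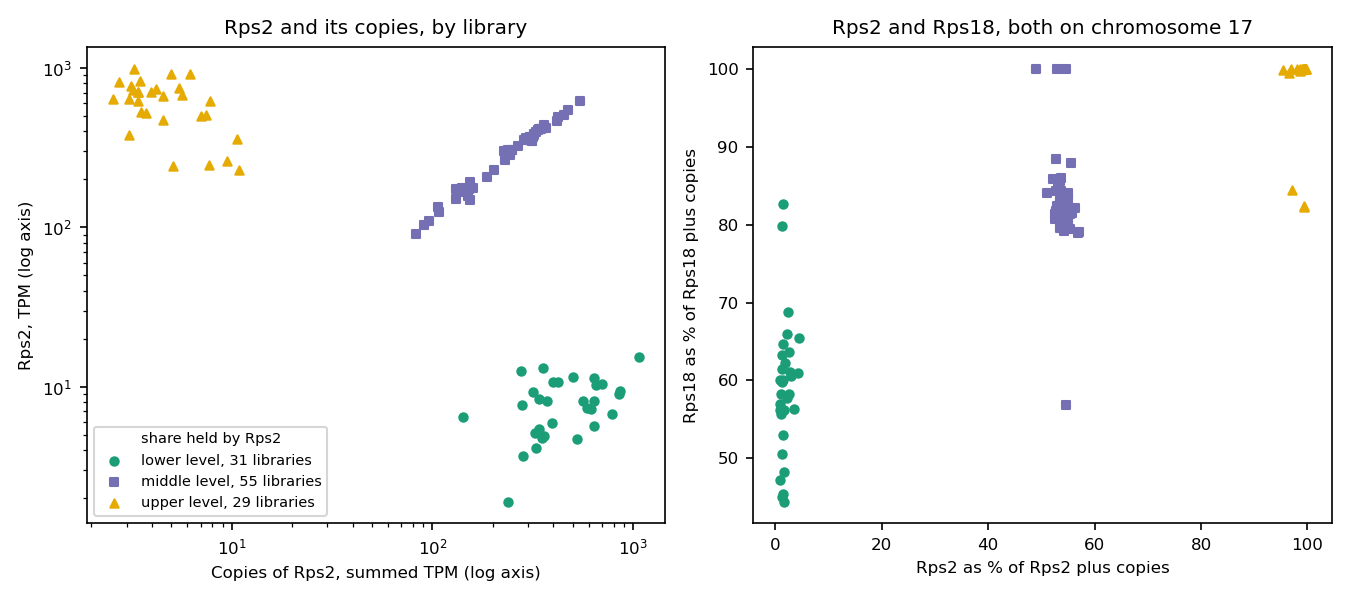
Left, Rps2 against its summed copies, both in TPM on log axes, 1 point per library, by the share that Rps2 holds (31 lower, 55 middle and 29 upper); right, the percent held by Rps2 against the percent held by Rps18, each of gene plus copies. The 3 sets do not overlap on the left, and on the right no library is at the lower level of one gene and the upper level of the other.

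Rps18, Rpl29 and Rpl35a showed the same kind of pattern, with 2 gaps of at least 8 percentage points and at least 6 libraries on each side, a rule set after the values were seen. Rps18, a small subunit protein at the interface of the subunits, held 44.4% to 68.8% of its sum in 30 libraries, 78.9% to 88.4% in 56 and 99.5% to 100% in 29. Rpl29 held 23.3% to 29.3% in 38 libraries, 55.9% to 65.96% in 42 and 84.3% to 99.6% in 35. Rpl35a held 53.01% to 65.03% in 10 libraries, 73.6% to 81.98% in 54 and 98.1% to 100% in 51. Of the 10 lower libraries of Rpl35a, 6 were W5000 to W5005, so without them its lower level held 4 libraries and would not have met the rule. Each level was present among the 79 and among the 36 libraries for Rps2 and these 3 members.

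In the reference, copies of these 3 members differ from them by few bases, which is why their sequences are shown. Positions are counted from 1 at the A of the member's start codon, and capitals mark a base that differs between member and copy. Each pair covers the same coding bases, read on the coding strand from GENCODE M21 transcripts (GRCm38). Rpl35a (exon 3, chr16:33057475-33057534) and Gm10243 (chr6:48523614-48523673) differ at 1 of 333 coding bases, G156A. Rpl29 (exon 3, chr9:106430308-106430367) and Gm8210 (chr1:43189193-43189252) differ at 3 of 483, and C72A is in the stretch. Rps18 (exon 4, chr17:33952233-33952292) and Gm10260 (chr13:97760218-97760277) differ at 4 of 459, with A337C and G371A in the stretch.
Rpl35a: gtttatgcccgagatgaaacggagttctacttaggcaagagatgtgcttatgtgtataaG
Gm10243: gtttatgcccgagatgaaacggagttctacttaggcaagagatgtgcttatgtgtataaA
Rpl29: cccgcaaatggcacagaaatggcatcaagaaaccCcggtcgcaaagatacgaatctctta
Gm8210: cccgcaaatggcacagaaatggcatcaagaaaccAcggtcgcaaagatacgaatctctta
Rps18: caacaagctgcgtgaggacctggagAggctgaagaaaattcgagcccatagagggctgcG
Gm10260: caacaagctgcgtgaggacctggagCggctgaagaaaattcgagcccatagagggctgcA

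Rps2 and Rps18 lie on the same chromosome, at chr17:24718116-24721929 and chr17:33951999-33956001, and their levels went together. Only 9 libraries were at different levels (lower, middle or upper) for the 2 genes, and none was at the lower level of one and the upper level of the other. Without W5000 to W5005, 100 libraries were at the same level and 9 were not. For the other 5 pairs among Rps2, Rps18, Rpl29 and Rpl35a, which lie on different chromosomes, 41 to 49 libraries were at the same level and 12 to 18 were at opposite ends. These counts describe the libraries and were not tested.

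Libraries W5000 to W5005 were all at the lower level for Rps2, Rps18, Rpl29 and Rpl35a. Rpl34 was 97.2 to 147 TPM (median 123) in these 6 and 354 to 1504 TPM (median 773) in the others. Its copy Rpl34-ps1 was 440 to 683 TPM in the 6 and at most 4.42 TPM elsewhere, so the values of neither overlap. Rps15a was 350 to 556 TPM (median 449) in the 6 and 696 to 3217 TPM (median 1367) elsewhere. Rps28 overlapped, while its copy Gm10443 was 71.99 to 231 TPM in the 6 and 511 to 3191 TPM elsewhere. Rpl34 (exon 3, chr3:130729084-130729143) and Rpl34-ps1 (chr6:71124682-71124741) differ at 2 of 354 coding bases, of which T132C is in the stretch printed with the base in capitals.
Rpl34: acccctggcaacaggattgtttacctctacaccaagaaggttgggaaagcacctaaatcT
Rpl34-ps1: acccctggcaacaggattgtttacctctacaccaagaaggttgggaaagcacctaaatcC

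**Figure D3:**
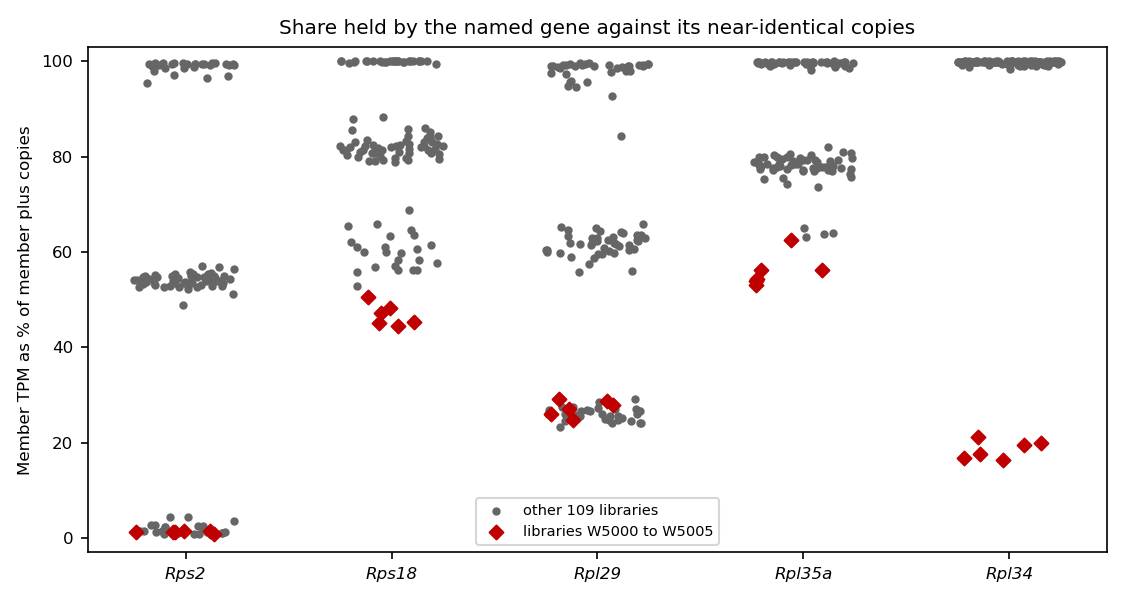
Percent of the summed TPM of a member and its near-identical copies that the member holds, 1 point per library (red diamonds W5000 to W5005, grey all others), with points spread sideways for clarity. Rps2, Rps18, Rpl29 and Rpl35a each show 3 bands, and Rpl34 is under 22% in the 6 red libraries and above 98% in all others.

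By the mixture rule on levels relative to the other members (BIC fall over 10, Ashman D over 2, at least 6 libraries each side), 5 members separated in the 79 libraries, among them Rps2, Rpl34, Rpl29 and Rpl28. Rps2 split 20 to 59, and Rpl29 21 to 58. Rpl34 split off exactly 6 libraries, which were W5000 to W5005, and Rpl28 split off 10. Without these 6 libraries only Rps2 and Rpl29 separated under this rule, and with copies summed Rpl34 and Rps28 did.

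The start of these genes was searched for the pyrimidine tract named in the opening. That tract is described there as acting at translation, and its relation to the RNA levels given here was not tested. RefSeq promoters on GRCm38.p6 were matched for 49 of the 68 members. The motif searched was a C at the annotated start followed by 4 pyrimidines (C or T), on the gene's strand and at that position only. It was found for 12 of these 49 members (24.5%) and for 3.01% of the 27025 genes of the promoter table. Rps27 has it, shown from 20 bases before to 10 after the start (chr3:90213639-90213668, minus strand) with the pyrimidine run in capitals, and Rpl12 does not (chr2:32961692-32961721, plus strand). Annotated starts can lie some bases from the true start, so a missing match says only that the letters are not at this position.
Rps27: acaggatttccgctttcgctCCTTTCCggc
Rpl12: gcgtgggcggagcaggatccgtcttttcgg

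In the 79 libraries, 65 of 68 members rose with Mki67, but without W5000 to W5005 only 15 did. A slope is the change in log2(TPM + 1) of a gene per unit of log2(Mki67 TPM + 1), fitted with limma over 14622 genes and called at a Benjamini-Hochberg adjusted p under 0.05. Of all genes tested, 72.9% rose and 1.44% fell with Mki67 in these libraries, so the count of members has to be read against a general rise. The median slope was 0.19 over members and 0.18 over all genes, and no member fell, at an unadjusted p under 0.05 either. Without the 6 libraries, 70.5% of all genes rose, with a median slope of 0.17, while members rose at a share of 22.1%, with a median of 0.06. The 15 members called then were all among the 65, and 2 of 68 members had a slope above the median of all genes.

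Rps2 had the steepest slope with Mki67 in the 79 libraries (1.2, SE 0.25, adjusted p = 2.0e-05 by limma), over the 3 levels described above. Without W5000 to W5005 it was 0.70 (SE 0.27), and with copies summed 0.24 (SE 0.04). Rpl34 (0.35, SE 0.08) and Rps18 (0.34, SE 0.07) came next, and neither was called without W5000 to W5005, with slopes of 0.02 and 0.11. Rps15a and Rps19 kept a call without them at 0.11 (SE 0.04) and 0.15 (SE 0.04). For Rps19, a small subunit protein known from inherited anemia, Pearson r was 0.58 and Spearman rho 0.56 over 79 libraries, and 0.39 and 0.45 over the other 73. The permutation p was 1e-05 for both over the 79, the smallest that 100000 permutations can give. When the 2 libraries with Mki67 farthest from its median were left out, r was 0.59 over the 79.

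The count depends on the scaling. With median-of-ratios scaling the median slope of all genes moved from 0.18 to -0.01, 22% of genes rose and 20% fell, and 3 members were called: Rps2, Rpl34 and Rps18. The median slope of members minus that of all genes was 0.01 on the deposited scale and 0.02 after this scaling. It was negative on the autosomal protein-coding total (-0.003), without the 20 genes with the largest share (-0.008), with a pseudocount of 0.1 TPM (-0.01), and without W5000 to W5005 (-0.11). Against the 72.9% of all genes that rose, the other lists of protein synthesis genes had 30 of 30 ribosome biogenesis genes (Nop56 0.38, SE 0.03, and Nop58 0.37, SE 0.04), 72 of 78 mitochondrial ribosomal proteins (92.3%, Mrps22 0.33, SE 0.04) and 29 of 30 translation factors (Eif3k 0.32, SE 0.04) that rose. Of the translation control genes 8 of 12 (66.7%) rose, below the share of all genes, with Trp53 (0.36, SE 0.03) the steepest, and of the ribosomal protein genes outside the name rule 10 of 12 tested, with Rpl22l1 (0.35, SE 0.04) the steepest. Without W5000 to W5005, when 70.5% of all genes rose, the counts were 27 of 30 for biogenesis, 55 of 78 (70.5%) for the mitochondrial ribosome, 17 of 30 (56.7%) for translation factors, 10 of 12 for translation control and 4 of 12 for the genes outside the name rule. Markers of immune cells (6 of 6 tested) and stroma (7 of 8) rose too, and 5 of 6 and 5 of 8 did without these libraries. Their summed TPM ran from 29.6 to 1309 and from 307 to 6491 in the 79 libraries, and their part in the result was not tested.

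**Figure D4:**
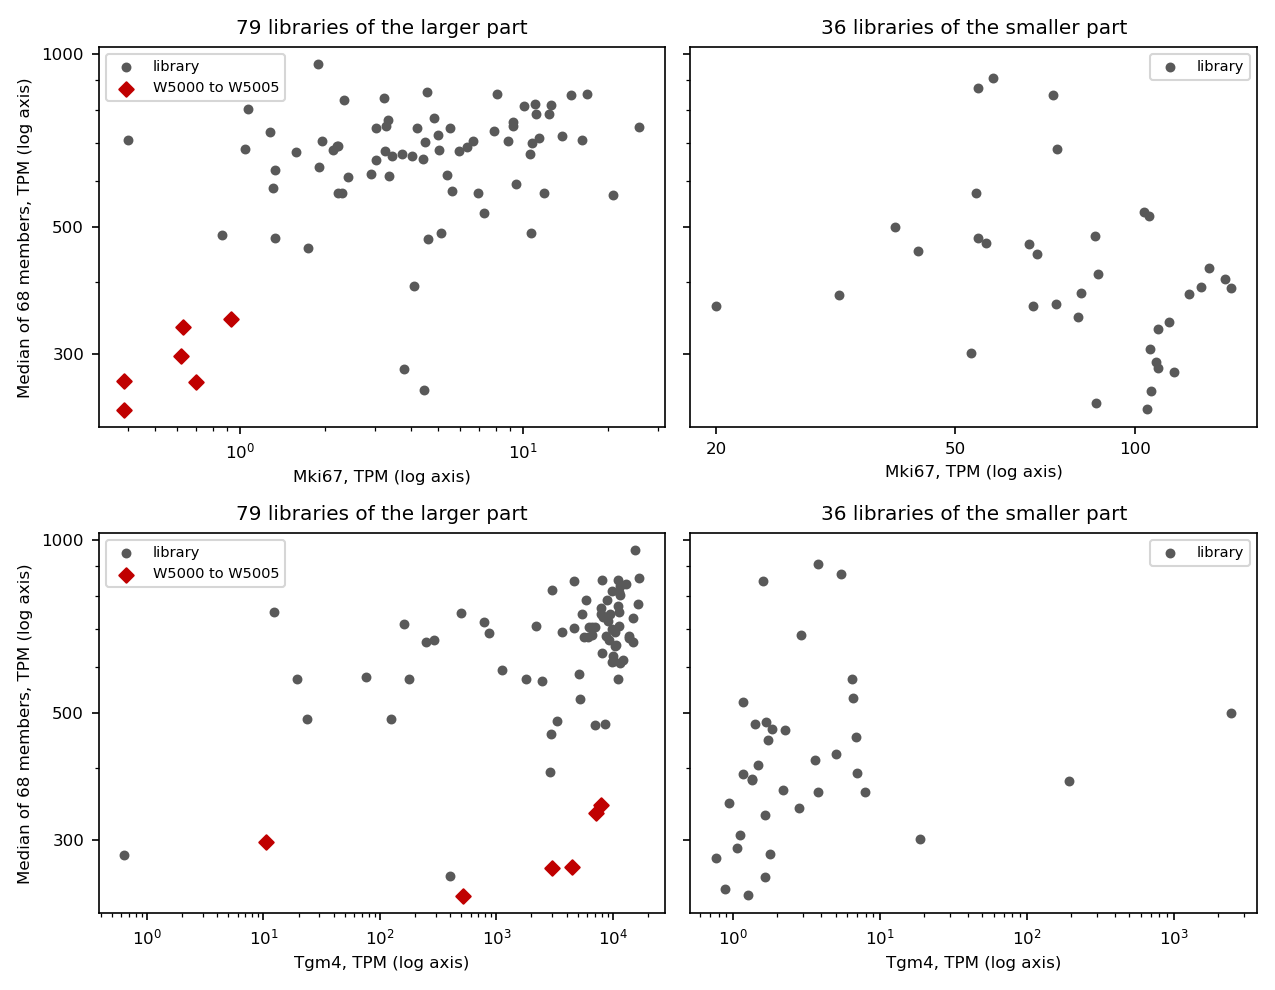
Median TPM of the 68 members in each library against Mki67 (top) and Tgm4 (bottom), log axes, in the 79 libraries (left, larger part) and the 36 (right, smaller part); red diamonds are W5000 to W5005. The 6 red libraries lie at 0.39 to 0.93 TPM of Mki67 and at the low end of the member level.

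In the 36 libraries, 25 of 68 members fell and 1 rose as Mki67 rose (limma). Of all 14622 genes, 21.5% fell and 23.3% rose, against 36.8% of members that fell. The median slope was -0.28 over members and -0.01 over all genes, and 4 members lay above the median gene. Position in the deposit went with both quantities. Those of the 36 listed last, from W4356 on, had Mki67 of 73.6 to 144 TPM and median member levels of 240 to 521 TPM. Those listed before had 20 to 133 TPM and 300 to 909 TPM. No term for position was fitted, so the fall cannot be told apart from a difference between these sets. Libraries W1050, W1118, W1790 and W1915 stood apart here, with summed neuroendocrine markers of 8.22 to 35.9 TPM against 170 to 761 TPM in the other 32. They also had the highest median member levels, 683 to 909 TPM against 240 to 572 TPM, at 54.7 to 74.1 TPM of Mki67, and summed stroma markers of 540 to 1959 TPM against 3.46 to 935 TPM. Without them, a choice made after the values were seen, 22 members fell (32.4%) and Rpl5 and Rpl12 rose, when 21.3% of all genes fell, and the median slope was -0.19 over members and 0.02 over all genes. Rps20 fell by 0.62 (SE 0.18, adjusted p = 0.0068), Rpl41, one of the shortest proteins known, by 0.57 (SE 0.14, adjusted p = 0.0019), and Rpl26 by 0.52 (SE 0.13, adjusted p = 0.0020) on the log2 scale per unit of Mki67. Rpl41 ran from 512 to 2479 TPM (median 927) here, with r = -0.56 and rho = -0.63 (permutation p adjusted over the 16 relations computed, 0.0010 and 0.00035) and r = -0.56 without the 2 farthest libraries. For Rps20, which ran from 52.5 to 521 TPM (median 125), r was -0.49 and rho -0.60.

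Rpl5 was the member that rose with Mki67 in the 36 libraries (0.34, SE 0.07, adjusted p = 0.00014), between 28.7 and 67.8 TPM with a median of 40.3. Summed with its copies it fell instead (-0.32, SE 0.13, adjusted p = 0.039), so its direction depends on how its identical copy Gm15500 is counted. Rps20 and Rps28 kept a negative slope with copies summed but were not called (-0.28 and -0.20). More members were called with other scalings: 58 members fell with median-of-ratios scaling, when 38.3% of all genes fell, and 40 fell on the autosomal protein-coding total, when 23.7% did. On these scalings the median slope was -0.41 and -0.17 over members, and -0.09 and 0.10 over all genes, so the slopes themselves were steeper with the first and shallower with the second.

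Among other genes of protein synthesis in the 36 libraries, 30 of 78 mitochondrial ribosomal proteins fell (38.5%, against 21.5% of all genes) and 2 rose (Mrpl55 -0.63, SE 0.11, and Mrpl17 -0.61, SE 0.16). Of 30 translation factors 5 fell (16.7%), a lower share than that of all genes, among them Eef1a1 (-0.43, SE 0.14), which brings transfer RNA to the ribosome. Of 30 ribosome biogenesis genes 5 rose (16.7%, against 23.3% of all genes) and 1 fell, with nucleolin, Ncl (0.58, SE 0.07), the steepest. Of 12 translation control genes 4 rose and 1 fell, with Mycn at 0.83 (SE 0.28) and Tsc1 at 0.72 (SE 0.07). Of 12 ribosomal protein genes outside the name rule 5 fell and none rose, with Rpl36al (-0.63, SE 0.14) the steepest. Markers of other cells fell with Mki67 in the same libraries, 7 of 8 for stroma, 6 of 6 tested for immune cells and 6 of 8 for prostate luminal cells, while of 8 neuroendocrine markers 2 rose and 1 fell. Their summed TPM ran from 3.46 to 1959, from 18.6 to 822 and from 132 to 2917, and their part in the fall of the members was not tested.

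Tgm4 itself separated within the 79 libraries into 20 and 59, so a term for this split was put in the fit. Within it 40 of 68 members rose with Tgm4 and none fell, at an unadjusted p either, against 13.8% of all genes that rose and 2.15% that fell (limma). The share of members called was 58.8%. Library W1154, one of the 79, had the lowest Tgm4 (0.64 TPM) and the lowest member share of protein-coding TPM (4.74%). No fit was run without W1154. Without W5000 to W5005, 36 members rose, all among the 40, against 11.8% of all genes. The median slope was 0.09 over members and 0.04 over all genes, and all 68 members lay above the median gene. With median-of-ratios scaling 28 members rose, when 13.2% of genes rose and 10.6% fell, and all 68 again lay above the median gene.

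Rps18 (0.16, SE 0.05, adjusted p = 0.024) and Rps28 (0.14, SE 0.03, adjusted p = 0.0024) had the steepest called slopes with Tgm4 (limma). Both have copies listed at high levels, and with copies summed the highest slope of any member was 0.146. The r values below were not computed without W5000 to W5005. In the 59 libraries with higher Tgm4, Rps28 ran from 782 to 3457 TPM (median 2459), with r = 0.55, rho = 0.48 and r = 0.49 without the 2 farthest libraries. In the 20 with lower Tgm4 it ran from 552 to 2442 TPM (median 1739), with r = 0.46, rho = 0.45 and r = 0.13 without the 2 farthest, so there the relation rests on those 2 libraries. Rps18 gave r = 0.35 in the 59 and 0.45 in the 20, the latter 0.14 without the 2 farthest, so it too rests on 2 libraries there.

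Of the translation factors 14 of 30 rose with Tgm4 in the 79 libraries and none fell, with Pabpc1, the poly(A) binding protein (0.16, SE 0.04), and Eef2 (0.14, SE 0.03) the steepest. This was 46.7%, against 13.8% of all genes. The mitochondrial ribosomal proteins, with 8 of 78 (10.3%, Mrps12 0.13, SE 0.04), and the ribosome biogenesis genes, with 3 of 30 (10%, Tsr1 0.11, SE 0.03), rose at a lower share than all genes. Of translation control 5 of 12 rose (Eif4ebp2 0.15, SE 0.04) and of the ribosomal protein genes outside the name rule 4 of 12 (Rplp0 0.12, SE 0.04). None of these lists had a member that fell. Without W5000 to W5005 the counts were 11 of 30, 6 of 78, 1 of 30, 5 of 12 and 3 of 12 in the same order. Among prostate luminal markers other than Tgm4, 4 of 7 rose. Of 8 stroma markers 3 rose (Tagln, Myh11 and Acta2) and Col1a1 fell, and of 6 immune markers tested Itgam fell. Without W5000 to W5005, 3 luminal markers rose, 3 stroma markers rose and 2 fell, and 5 of 6 immune markers fell. Their part in the rise of the members was not tested.

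In the 36 libraries no member was called with Tgm4, when 2.19% of all genes rose and 0.568% fell (limma). At an unadjusted p under 0.05, 1 member rose and none fell. The slopes of members ran from -0.08 to 0.11, with a median of 0.04 against -0.0046 for all genes. Of the 68 members, 63 lay above the median gene. A pair of libraries held the highest Tgm4 values there, and without them no member was called either, with slopes from -0.02 to 0.28 and a median of 0.17 against 0.04 for all genes. Without W1050, W1118, W1790 and W1915, 1 member, Rps27, was called, when 6.91% of all genes rose. With ranks in place of levels, 8 members rose (11.8%), against 3.25% of all genes. At an unadjusted p under 0.05, 51 members rose with ranks (limma). The share of all genes at an unadjusted p was not computed, so the unadjusted counts here have no background to be read against. The 4 other lists of protein synthesis genes and the genes outside the name rule had no call.

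**Figure D5:**
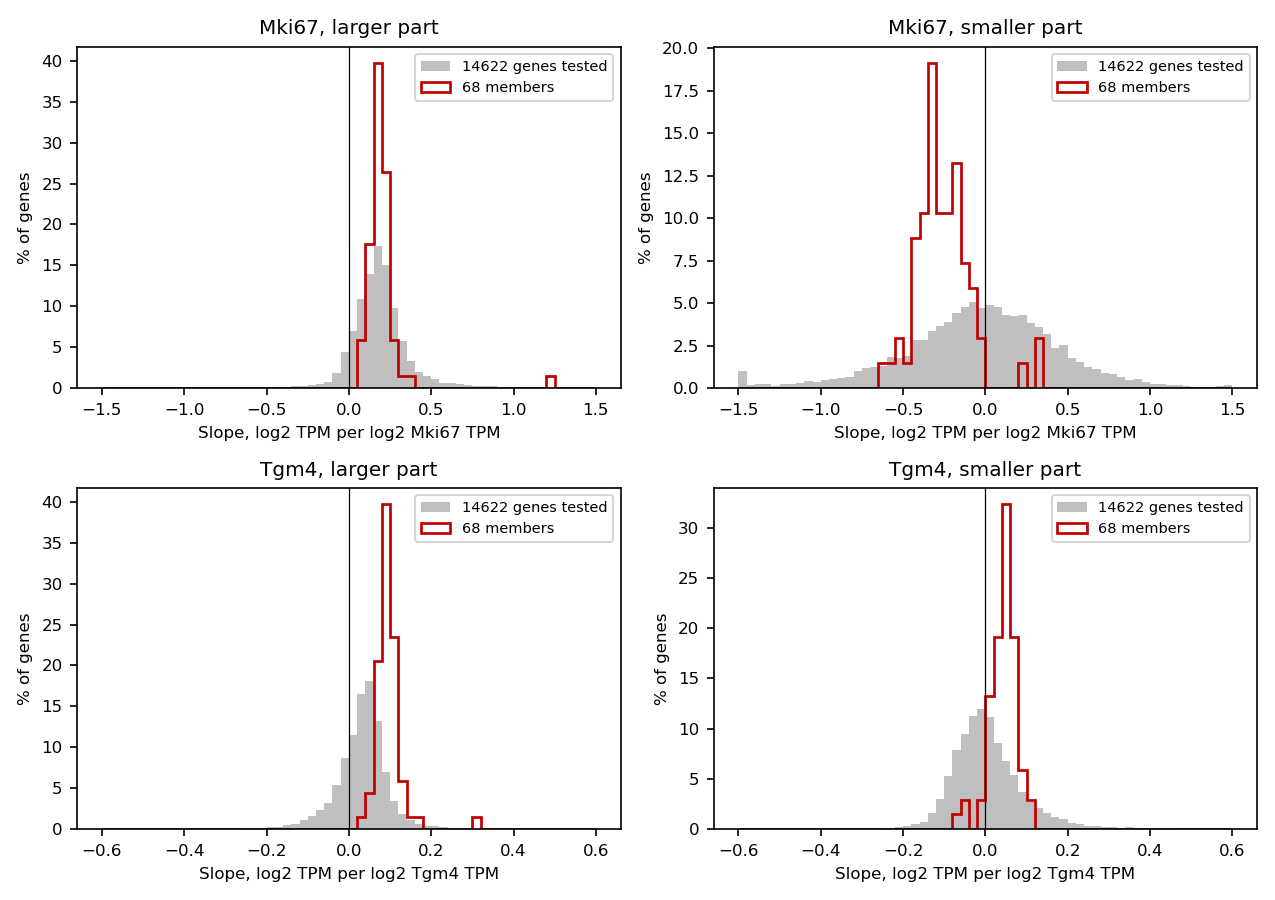
Slopes on Mki67 (top) and Tgm4 (bottom) of all 14622 genes tested (grey) and of the 68 members (red line), as percent of genes per bin, in the 79 libraries (left, larger part) and the 36 (right, smaller part), with slopes beyond the axis placed in the end bins. Members centre near 0.19 with all genes at top left, near -0.28 at top right where all genes centre at -0.01, and at 0.09 against 0.04 at bottom left.

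The X-linked ribosomal protein genes, which the rule leaves out, were listed at low values. Rps4x had a median of 0.05 TPM (0.00 to 0.58), Rpl10 0.43 TPM (0.00 to 1.51), Rpl39 0.56 TPM (0.07 to 2.76) and Rpl36a 3.16 TPM (0.79 to 6.90). A mean of at least 1 TPM was reached by 17.9% of the 938 protein-coding genes on X and by 61.4% of the autosomal ones, so low values were common on this chromosome.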

How the data were processed

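Prostate RNA of (TRAMP x WSB/EiJ) F2 males was depleted of ribosomal RNA and sequenced by the authors. Per the study's methods, reads were trimmed, mapped to an allele-specific transcriptome of both strains (GRCm38) and quantified with RSEM. The submitters' processing notes list Bowtie2 2.2.5, RSEM 1.2.20 and CASAVA 1.8.2. The annotation is not given in the sources used here. RSEM divides reads that match several transcripts by estimated shares, so levels of near-identical genes are less certain. The authors deposited TPM, scaled to 1000000 per library, which keeps no depth, so counting error is unknown and no count test was run. The labels name a mouse per library, and p-values measure the spread between libraries.

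Names, positions and transcripts came from GENCODE M21, which held 45136 of the 45699 genes. Copies were found with BLAST+ 2.17.0 (95% identity, 80% cover). Slopes used limma 3.58.1 in R 4.3.3 (trended eBayes) on log2(TPM + 1), for genes whose mean reached 1 TPM, within each set of libraries, with Benjamini-Hochberg adjustment. Correlations used 100000 two-sided permutations in Python 3.11.15. The closest 2 libraries had r = 0.974, so none was a copy of another. Alternatives were a pseudocount of 0.1, 3 other scalings, no filter, ranks and summed copies, with others added after seeing the data. The fit was tested on simulated data. Members and lists were chosen with earlier results of these data known. Members were named by level, scatter, separation and slope, by a written rule. Rps15a, Rps19 and the copies were named after their values were seen. Some members are not reported here by name.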

Additional observations from a re-analysis of the deposited data

How the results depend on the processing

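Of 186 alternative values, 159 were labelled the same. A slope had to keep its direction and its side of the threshold, and a count had to stay within 1.5 times the reported count. The member share had to stay within 1 SD over libraries. Of the rest, 19 counts or shares moved, 7 slopes lost their call and 1 reversed. Many of the 186 are slopes of the same named members, so 159 does not measure how stable the counts are. No paired analysis was possible because all mice belong to 1 labelled group. The count of 65 members that rose with Mki67 in the 79 libraries went to 3 with median-of-ratios scaling (4.41%, against 22% of all genes). It went to 9 without the 20 genes with the largest share (13.6%, against 33.5%). On the autosomal protein-coding total it was 21 (30.9%, against 44.4%), and without W5000 to W5005 it was 15 (22.1%, against 70.5%). In the 36 libraries the count of 25 that fell went to 58, 41 and 40 with the same scalings and to 44 with ranks. Of all genes, 38.3%, 24.1%, 23.7% and 28% fell in these settings, in the same order. The count of 1 that rose in the 36 went to 2 without the 20 genes with the largest share and 2 on the protein-coding total. It went to 2 without W1050, W1118, W1790 and W1915 and 0 with copies summed. Of all genes, 36.2%, 40.8%, 25.4% and 23.3% rose in these settings, in the same order. With copies summed, Rpl5 went from 0.34 to -0.32, the only reversal among the named members and alternatives run. The 40 members that rose with Tgm4 in the 79 libraries ranged from 28 to 59, within 1.5 times, when 13.2% and 26.1% of all genes rose. The 0 in the 36 became 8 with ranks, when 3.25% of all genes rose. It became 1 without W1050, W1118, W1790 and W1915, when 6.91% of all genes rose. The member share was 5.04% of all TPM. No library was outside in member level, but 3 low ones (W4351, W1154 and W5005) were on the protein-coding total. The count of 5 members with separate levels became 2 with copies summed, 2 without W5000 to W5005 and 13 over all libraries. The cause of these differences was not tested, except that fewer libraries enter where some are left out. Leaving out the 20 genes also removed 2 members, which left 66. The study's methods state a minimum number of read pairs, but the depth of each library is unknown, so no limit from counting is given.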
